A study of Mus musculus with 8 samples.

Results

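Adrenomedullin and endothelin are a pair of vasoactive peptide systems with opposing actions on blood vessels, and the genes described here encode their ligands, receptors and processing enzyme. They were Adm, Calcrl, Ramp1, Ramp2, Ramp3, Edn1, Ece1, Ednra and Ednrb, taken by name and with earlier results of these data known. For 8 of these 9 genes a probe set with exactly 1 gene symbol was found, and all 8 were bright enough to test, among 19937 genes with such a probe set and 14953 tested. Ednra, the endothelin A receptor gene, was not analysed here. Each of the 8 genes had 1 such probe set.

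The data are RNA levels in whole mouse lung, measured on 8 Affymetrix gene arrays with 2 arrays in each of 4 groups. The groups were mepenzolate at 25 h, vehicle at 25 h, mepenzolate at 7 h and vehicle at 7 h. Mepenzolate, a muscarinic receptor blocker, was dissolved in PBS and given into the trachea by micropipette, with the mice under chloral hydrate at 500 mg/kg. The composition of the vehicle is not given in the sources used here. Strain, sex, age, the hour of the day of dosing and the number of animals behind an array are not given in the sources used here, and the labels of these 8 samples name no agent that induces lung disease. The study asked how mepenzolate lowers inflammation and oxidative stress in the lung. The labels do not state whether both arrays of a group are from different mice. The p-values therefore rest on array-to-array spread only, part of which may be technical.

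Adrenomedullin, the product of Adm, widens blood vessels and tightens the endothelial barrier. Its receptor is the Calcrl protein, a receptor that signals through cyclic AMP and needs a partner protein to reach the cell surface: with the Ramp2 or Ramp3 protein it binds adrenomedullin, and with the Ramp1 protein it binds calcitonin gene-related peptide. Endothelin-1, the product of Edn1, constricts vessels and airways; it is made as a longer precursor that the enzyme encoded by Ece1 cuts to the active peptide. The endothelin B receptor, encoded by Ednrb, is carried by lung endothelium, where it releases nitric oxide and clears endothelin-1 from the blood.

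Among the 8 genes only Adm passed a comparison described below, and that call did not hold when some single arrays were left out. Adm stood higher 25 h than 7 h after dosing on the arrays of both treatments, so its promoter is shown here for reference. The Adm gene lies at chr7:110627657-110629820 on the plus strand of GRCm38.p6, and its annotated start is preceded by these 250 bases, chr7:110627407-110627656, taken from RefSeq:

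Adm promoter: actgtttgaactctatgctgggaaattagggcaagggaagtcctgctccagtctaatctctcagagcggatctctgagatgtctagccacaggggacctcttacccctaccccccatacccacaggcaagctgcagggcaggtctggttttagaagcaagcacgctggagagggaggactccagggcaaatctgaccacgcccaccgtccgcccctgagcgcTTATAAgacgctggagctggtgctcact

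The capitals mark matches to TATAA, the core of a TATA box, which begin 27 bases before the start on the plus strand and, as the overlapping reverse complement, 28 bases before it. Such a match on either strand was present in 22.8% of 32851 promoter windows of the same length, and TATAA was added to the search after the sequence was seen. The Adm window held no match on either strand to ACGTG (16.6% of windows), a form of the core of the hypoxia response element. The other form of that core, GCGTG, was not searched for, and its reverse complement, CACGC, can be read in the bases shown. The window also held no match to CACGTG (6.02%), the E-box that clock factors bind and which contains ACGTG. Nor did it match TGANTCA (6.75%), the AP-1 motif, or AGATAA (9.99%), a GATA motif. Windows of the other genes, of which Ramp2 had none in the table, held none of the 5 motifs, except 1 of 4 Ece1 windows with CACGTG and the ACGTG inside it. These matches describe letters in a window and not binding.

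Before the results, 1 array has to be set apart. Sftpc, the surfactant gene that marks lung alveoli, stood between log2 13.49 and 13.56 on all 8 arrays. The second mepenzolate array at 7 h had albumin, Alb, at 8.93, against 5.94 to 6.39 on the other 7 arrays. The same array had the airway gene Ltf at 6.42, against 7.86 to 8.72 on the others. The time differences and 7 h differences of the 8 genes, and of the other genes named for these comparisons, are also given without it. Levels below are log2 values after RMA (robust multi-array average), so that 1 unit is a doubling, and they are compared only within a gene, since brightness also depends on the probes. Differences carry standard errors from limma, and a gene passed if its limma p, adjusted over all 14953 genes by the Benjamini-Hochberg method, was under 0.05.

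**Figure D1:**
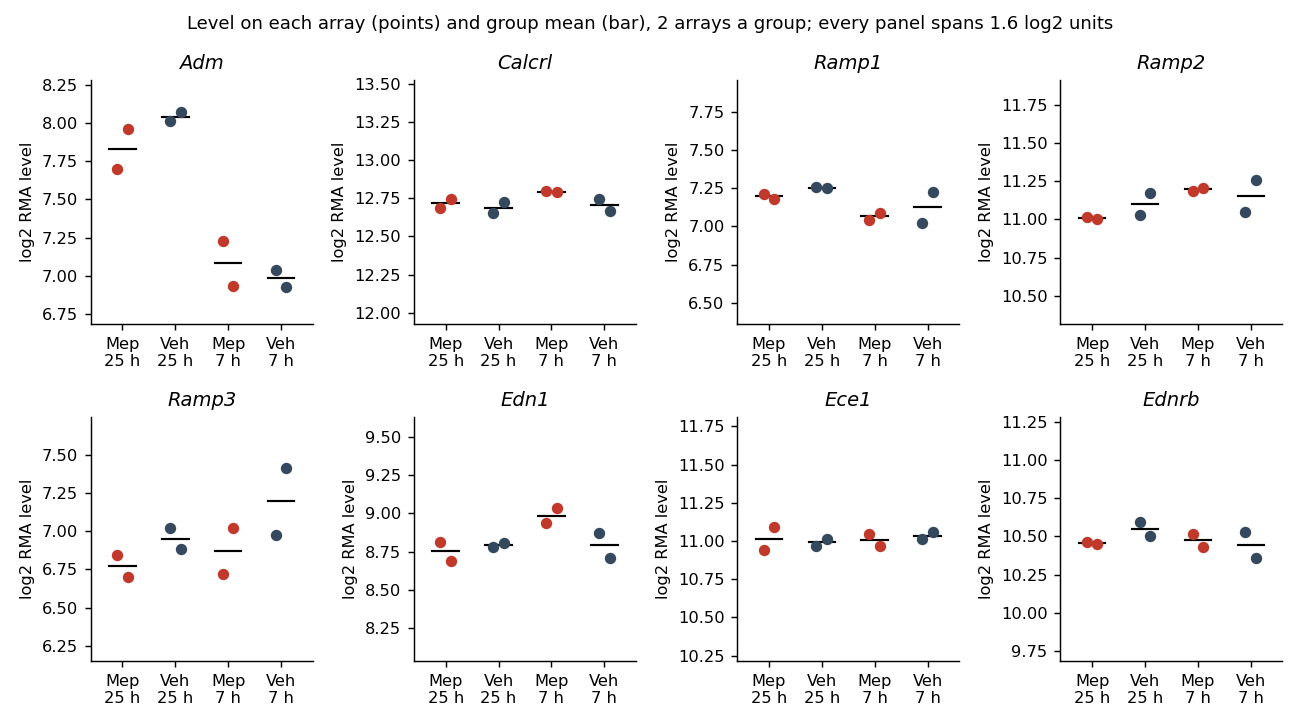
Levels of the 8 genes on every array, in log2 RMA units, for mepenzolate (red) and vehicle (dark) lungs at 25 h and at 7 h; points are arrays, bars are means of 2 arrays, and every panel spans the same number of log2 units on its own baseline. The 4 Adm arrays at 25 h lie between 7.70 and 8.07, above the 4 at 7 h between 6.93 and 7.23, while no such separation by time is seen in the other panels.

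At 25 h Adm stood at 7.70 and 7.96 in mepenzolate lungs and at 8.01 and 8.07 in vehicle lungs. At 7 h it stood at 7.23 and 6.93 in mepenzolate lungs and at 7.04 and 6.93 in vehicle lungs. All 4 arrays at 25 h were above all 4 at 7 h, with a gap of 0.47 between the nearest arrays. The group means were 7.83 ± 0.19 for mepenzolate and 8.04 ± 0.04 for vehicle at 25 h, and 7.08 ± 0.21 for mepenzolate and 6.98 ± 0.08 for vehicle at 7 h (SD, n = 2 each). The groups at one time lay close together, and the step between the times was several times larger than the spread between replicates.

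Averaged over both treatments, Adm was higher at 25 h than at 7 h by 0.90 ± 0.09 on the log2 scale, a 1.87-fold difference (95% interval 1.62 to 2.16). It passed limma, with adjusted p = 0.00937. Of the 8 genes 1 passed, Adm, against 0.221% of all genes tested (33 of 14953). Of these 33 genes 6 were higher at 25 h, or 0.0401% of genes tested, and 27 were lower. Because the 8 genes were chosen with earlier results of these data known, these shares are no test of an excess. Adm ranked 11 by p-value and 19 by size of difference among all genes tested. Among the 8 genes 1 had arrays of the times that did not overlap, against 6.69% of all genes, and 1 had an unadjusted limma p under 0.05, against 8.97%.

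**Figure D2:**
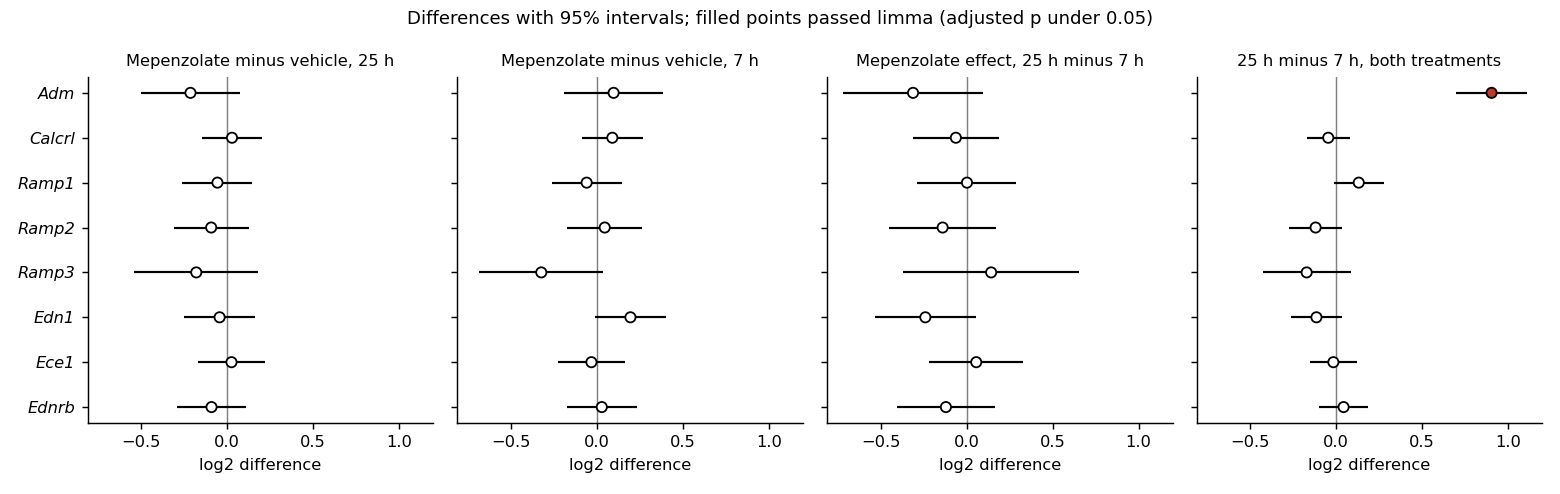
Differences in log2 units (horizontal axis, points) with 95% intervals from limma (lines) for the 8 genes (rows) in the 4 comparisons (panels); a filled point passed limma and an open one did not. In the right panel Adm stands at 0.90 and the other 7 genes lie between -0.17 and 0.13, and no point is filled in the other panels.

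The time difference of Adm stood at 0.75 in mepenzolate lungs and at 1.06 in vehicle lungs, as read within each treatment. It passed in the vehicle arrays alone (limma adjusted p = 0.0322), but did not in the mepenzolate arrays alone (limma adjusted p = 0.184). The difference between these 2 values was -0.31 ± 0.18 and did not pass (limma adjusted p = 1.00), so a smaller step under mepenzolate was not shown. Without the second mepenzolate array at 7 h the averaged difference was 0.83 (limma adjusted p = 0.0258). The call ended, with little change in size, without the second mepenzolate array at 25 h (0.84, limma adjusted p = 0.0507), the second vehicle array at 25 h (0.89, limma adjusted p = 0.0714) or the second vehicle array at 7 h (0.88, limma adjusted p = 0.0561).

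Time since dosing, recovery from anesthesia and the hour of the day cannot be told apart in this design. Clock genes also differed between the times: Arntl, which encodes the activator BMAL1, was higher at 25 h by 1.47 ± 0.09 (limma adjusted p = 0.00255), and Per2, which encodes a clock repressor, was lower, at -1.25 ± 0.08 (limma adjusted p = 0.00255). With the second mepenzolate array at 7 h left out these were 1.38 and -1.27 (limma adjusted p = 0.00336 and 0.0112). Both were named after their values were seen, and their part in the Adm result was not tested. In whole lung, fewer cells of a type and less RNA per cell cannot be told apart either. Of 18 tested markers of endothelium, a cell type that makes adrenomedullin, 4 were higher and 14 lower at 25 h than at 7 h (median -0.06, against 0.00 over all genes tested), and 0 passed limma, with 1 at an unadjusted p under 0.05. The mean of these 18 markers, relative to all 8 arrays, was -0.09 and -0.05 in mepenzolate lungs and -0.01 and 0.07 in vehicle lungs at 25 h, and 0.05 and -0.03 in mepenzolate lungs and 0.04 and 0.02 in vehicle lungs at 7 h. Of 7 alveolar macrophage markers 4 were higher and 3 lower at 25 h (median 0.05), and of 10 smooth muscle markers 2 were higher and 8 lower (median -0.09). By limma 0 passed in either list, with 1 and 3 at an unadjusted p under 0.05. Of 11 heart muscle markers 7 were higher and 4 lower (median 0.13), and of 11 airway markers 8 were higher and 3 lower (median 0.05). In these 2 lists 0 passed limma, with 1 and 2 at an unadjusted p under 0.05. The medians without the second mepenzolate array at 7 h were -0.08 for endothelium, 0.03 for macrophages and -0.09 for smooth muscle, against -0.01 over all genes. For heart muscle the median was then 0.13, with 11 higher and 0 lower. For airway it was -0.03, with 4 higher and 7 lower. The part of these markers in the Adm result was not tested.

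**Figure D3:**
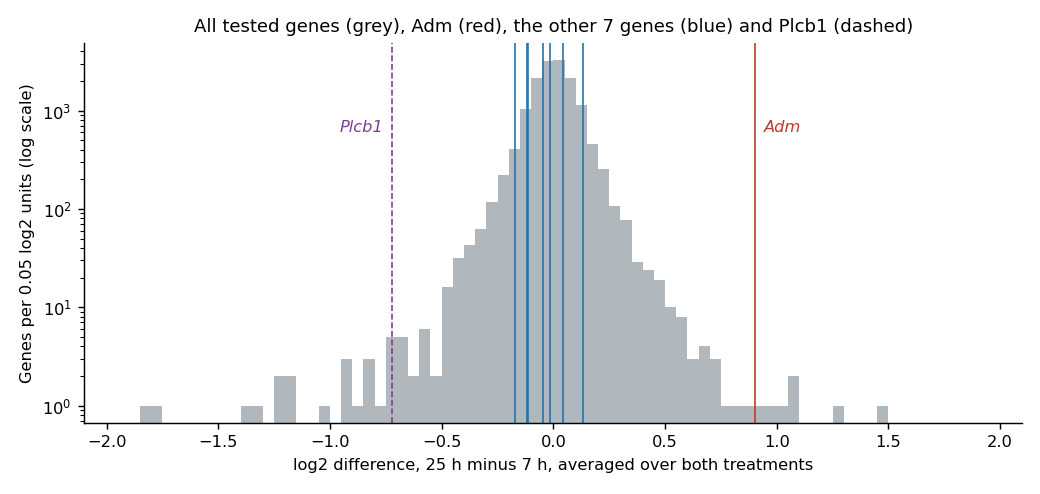
Distribution of the log2 difference between 25 h and 7 h over all 14953 tested genes (grey, number of genes on a log axis), with lines at Adm (red), the other 7 genes (blue) and Plcb1 (dashed). Adm lies at 0.90 in the thin right tail, Plcb1 at -0.72 in the left tail, and the other 7 genes lie inside the main body between -0.17 and 0.13.

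Calcrl, the gene of the receptor that adrenomedullin binds, varied by only 0.15 over the 8 arrays. At 25 h it stood at 12.69 and 12.75 in mepenzolate lungs and at 12.65 and 12.73 in vehicle lungs. At 7 h it stood at 12.80 and 12.79 in mepenzolate lungs and at 12.74 and 12.67 in vehicle lungs. The difference between 25 h and 7 h was -0.05 ± 0.05 (limma adjusted p = 0.899), with a 95% interval of -0.17 to 0.08. That interval lies wholly below that of Adm, 0.70 to 1.11.

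Ramp2, whose protein makes Calcrl an adrenomedullin receptor, stood at 11.02 and 11.00 in mepenzolate lungs and at 11.03 and 11.18 in vehicle lungs at 25 h. In the 7 h lungs it stood at 11.19 and 11.21 in mepenzolate lungs and at 11.05 and 11.26 in vehicle lungs. Its lowest arrays were those of mepenzolate at 25 h, and the arrays of the 2 times overlapped through the vehicle groups. The time difference of -0.12 ± 0.07 did not pass (limma adjusted p = 0.697).

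Ramp1, whose protein turns Calcrl into the receptor for calcitonin gene-related peptide, stood at 7.21 and 7.18 in mepenzolate lungs and at 7.26 and 7.25 in vehicle lungs at 25 h. The 7 h levels were 7.04 and 7.09 in mepenzolate lungs and 7.02 and 7.23 in vehicle lungs. The second vehicle array at 7 h reached the levels seen at 25 h, and the other 3 arrays at 7 h were lower. The time difference of 0.13 ± 0.06 did not pass (limma adjusted p = 0.608).

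Ramp3, the alternative partner for adrenomedullin, had the widest range after Adm, 0.71. It stood at 6.84 and 6.70 in mepenzolate lungs and at 7.02 and 6.88 in vehicle lungs at 25 h. At 7 h it stood at 6.72 and 7.02 in mepenzolate lungs and at 6.98 and 7.41 in vehicle lungs. Most of the range came from the second vehicle array at 7 h, which was the highest of all. The time difference of -0.17 ± 0.11 did not pass (limma adjusted p = 0.759), and it was -0.06 without that array.

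Edn1, the endothelin-1 gene, stood at 8.81 and 8.69 in mepenzolate lungs and at 8.78 and 8.81 in vehicle lungs at 25 h. The levels at 7 h were 8.94 and 9.03 in mepenzolate lungs and 8.87 and 8.71 in vehicle lungs. The mepenzolate arrays at 7 h were the highest of the 8, above every other array. Group means ran from 8.99 ± 0.07 in mepenzolate lungs at 7 h to 8.79 ± 0.11 in vehicle lungs at 7 h, 8.79 ± 0.02 in vehicle lungs at 25 h and 8.75 ± 0.09 in mepenzolate lungs at 25 h (SD, n = 2 each), and the last 3 did not differ beyond their spread. The time difference of -0.11 ± 0.06 did not pass (limma adjusted p = 0.689).

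Ece1, which encodes the enzyme that cuts the endothelin precursor, stood at 10.94 and 11.09 in mepenzolate lungs and at 10.97 and 11.01 in vehicle lungs at 25 h. At 7 h it stood at 11.04 and 10.96 in mepenzolate lungs and at 11.01 and 11.06 in vehicle lungs. The lowest and the highest array were both from mepenzolate lungs at 25 h, and all the others lay between them. The time difference was -0.02 ± 0.06 (limma adjusted p = 0.966), with a 95% interval of -0.15 to 0.12.

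Ednrb, the endothelin B receptor gene, stood at 10.46 and 10.45 in mepenzolate lungs and at 10.59 and 10.50 in vehicle lungs at 25 h. In lungs taken at 7 h it stood at 10.52 and 10.43 in mepenzolate lungs and at 10.53 and 10.36 in vehicle lungs. Both the highest and the lowest array were from vehicle lungs, at 25 h and at 7 h. The time difference was 0.04 ± 0.06 (limma adjusted p = 0.916), with a 95% interval of -0.10 to 0.19.

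The time differences of these 7 genes without the second mepenzolate array at 7 h were -0.05 for Calcrl, -0.11 for Ramp2, 0.14 for Ramp1, -0.10 for Ramp3, -0.09 for Edn1, -0.04 for Ece1 and 0.02 for Ednrb. None of them passed limma (adjusted p = 0.426 to 0.906).

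The treatment comparisons asked whether mepenzolate altered these genes, and in neither did any of the 8 pass limma. At 25 h 0 of 8 passed, against 0% of all genes tested, and 0 of 8 had an unadjusted limma p under 0.05, against 4.01% of all genes. The differences of mepenzolate from vehicle ran from -0.21 ± 0.13 for Adm and -0.18 ± 0.16 for Ramp3 to 0.03 ± 0.08 for Calcrl, with a median of -0.07, against -0.02 over all genes tested (limma adjusted p = 0.979 to 0.988). With 1 of the 25 h arrays left out, Adm ran from -0.35 to -0.08, Ramp3 from -0.25 to -0.11, Ramp2 from -0.17 to -0.02 and Ednrb from -0.14 to -0.05. The end nearest 0 for Adm was that without the first mepenzolate array. The 2 mepenzolate arrays did not overlap the 2 vehicle arrays in 5 of the 8 genes, against 36.6% of all genes. In these 5 genes, Adm, Ramp1, Ramp2, Ramp3 and Ednrb, the mepenzolate arrays were the lower ones. The 95% intervals, which bound what 2 arrays against 2 could miss, reached from -0.50 to 0.08 for Adm, from -0.54 to 0.18 for Ramp3 and from -0.29 to 0.11 for Ednrb.

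Several of these genes are expressed by endothelium, and most endothelial markers stood lower in the same arrays. Of the 18 endothelial markers 3 were higher and 15 lower in mepenzolate lungs than in vehicle lungs at 25 h (median -0.09), where 41.3% of all genes tested were higher. The 6 tested markers of aerocytes, the capillary cells of the gas exchange surface known to express Ednrb in mice, were all lower (median -0.13), 1 of them, Kdr, being in both lists. By limma 0 of the 18 and 0 of the 6 passed, with 3 and 1 at an unadjusted p under 0.05. Relative to all 8 arrays the aerocyte mean was -0.12 and -0.13 in mepenzolate lungs and 0.06 and -0.04 in vehicle lungs at 25 h. Within the endothelial list Cdh5 stood at -0.04 ± 0.08 and Pecam1 at -0.01 ± 0.08, but Sox18 at -0.45 ± 0.08 and Plvap at -0.28 ± 0.12. Markers of other cells were read in the same comparison. Alveolar macrophage markers were 3 higher and 4 lower (median -0.10), near the share of all genes. The lower ones included Car4 (-0.13 ± 0.08), which is also on the aerocyte list. Pericyte markers were 3 higher and 6 lower (median -0.05). Smooth muscle markers were 6 higher and 4 lower (median 0.07). The part of all these markers in the differences of Ednrb, Ramp2 and the others was not tested.

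At 7 h 0 of 8 genes passed limma, against 0% of all genes tested, and 0 of 8 had an unadjusted limma p under 0.05, against 2.39%. Edn1 was 0.20 ± 0.09 from vehicle and Ramp3 -0.32 ± 0.16, and the other 6 genes lay between -0.06 and 0.10, with limma adjusted p = 1.00 for each of the 8. The median of the 8 was 0.04, against -0.01 over all genes tested. Arrays of the treatments did not overlap in 2 of the 8 genes, Edn1 and Calcrl, both with the mepenzolate arrays above, against 23.7% of all genes. The 95% intervals were -0.01 to 0.40 for Edn1 and -0.68 to 0.04 for Ramp3.

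Single arrays moved both values. Without the second mepenzolate array at 7 h Edn1 stood at 0.15, Ramp3 at -0.47 and Adm at 0.25, against 0.10 ± 0.13 for Adm with all arrays. Without the second vehicle array at 7 h Edn1 stood at 0.11 and Ramp3 at -0.11. Without the first vehicle array at 7 h both were larger, at 0.28 for Edn1 and -0.54 for Ramp3. None of these values passed limma. The other 5 genes, without the second mepenzolate array, stood at 0.10 for Calcrl, -0.08 for Ramp1, 0.04 for Ramp2, 0.01 for Ece1 and 0.07 for Ednrb.

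Markers of other cells were read at 7 h too. Of 11 airway markers 2 were higher and 9 lower in mepenzolate lungs (median -0.23), and of 11 heart muscle markers 1 was higher and 10 lower (median -0.23), where 43.6% of all genes tested were higher. By limma 0 passed in either list, with 4 and 2 at an unadjusted p under 0.05. Other lists also held more lower than higher markers: pericyte 1 higher and 8 lower (median -0.04), fibroblast 1 and 7 (median -0.03). Alveolar macrophage markers were 1 higher and 6 lower (median -0.10). Endothelial markers were 8 higher and 10 lower (median -0.04), near the share of all genes. Without the second mepenzolate array at 7 h the endothelial markers were 10 higher and 8 lower (median 0.01). Smooth muscle markers were 5 higher and 5 lower (median -0.01), and alveolar type 2 markers 5 higher and 4 lower (median 0.00). Alveolar type 1 markers were 5 higher and 2 lower (median 0.05). Relative to all 8 arrays the airway mean was -0.04 and -0.46 in mepenzolate lungs, the lower value being that of the second array, and 0.09 and 0.24 in vehicle lungs. The heart muscle mean was -0.36 and -0.14 in mepenzolate lungs and 0.07 and 0.10 in vehicle lungs. Without the second mepenzolate array 4 airway markers were higher and 7 lower (median -0.09), and 0 heart muscle markers were higher and 11 lower (median -0.39), where 51.5% of all genes were higher. The part of these markers in the values of Edn1 and Ramp3 was not tested.

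Whether the mepenzolate effect differed between 25 h and 7 h was tested directly. By limma 0 of 8 genes passed, against 0% of all genes tested. At an unadjusted p under 0.05 there were 0 of 8, against 2.68% of all genes. The largest were -0.31 ± 0.18 for Adm and -0.24 ± 0.13 for Edn1 (limma adjusted p = 1.00 for both), each positive at 7 h and negative at 25 h. Their 95% intervals, -0.72 to 0.10 and -0.53 to 0.05, included 0. Without the second mepenzolate array at 7 h they stood at -0.46 and -0.19.

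Other genes of the adrenomedullin and calcitonin gene-related peptide pathway were read from a list of 16, of which 12 were measured and tested. None of the 12 passed limma in any of the 4 comparisons. Unadjusted limma p-values under 0.05 were found for 1 of the 12 at 7 h, Npr3, where 2.39% of all genes had one. Between the times 1 had one, Adcy6, where 8.97% of all genes did, with 0 in the other comparisons. Npr3 was on the list, but encodes a receptor of natriuretic peptides. Between 25 h and 7 h, 7 were higher and 5 lower (median 0.01, and 0.03 without the second mepenzolate array at 7 h). Adcy6, an adenylyl cyclase that makes cyclic AMP, stood at -0.15 ± 0.06 (limma adjusted p = 0.546), and Calcb, a calcitonin gene-related peptide gene, at 0.09 ± 0.06 (limma adjusted p = 0.755), and without that array these were -0.17 and 0.12. For mepenzolate at 25 h Adm2, the gene of the related peptide intermedin, stood at -0.20 ± 0.12 and Mme, the gene of neprilysin, which degrades both peptide families, at 0.11 ± 0.09 (limma adjusted p = 0.979 for both). With 1 array left out Mme ran from 0.02 to 0.20. For mepenzolate at 7 h Npr3, the clearance receptor of natriuretic peptides, stood at -0.50 ± 0.15 (limma adjusted p = 1.00), and at -0.48 without the second mepenzolate array.

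Npr3 stood at 9.16 and 9.11 in mepenzolate lungs, against 9.57 and 9.70 in vehicle lungs, at 7 h. At 25 h it stood at 9.13 and 9.58 in mepenzolate lungs, against 9.40 and 9.67 in vehicle lungs. The groups were apart at 7 h and overlapped at 25 h, and the difference of the effect, 0.32 ± 0.21, did not pass (limma adjusted p = 1.00) and ran from 0.10 to 0.55 with 1 array left out.

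On the endothelin side 16 of 20 listed genes were tested, and 1 passed, Plcb1, between the times, against 0.221% of all genes tested. That list too was chosen with earlier results of these data known, so the share is no test of an excess. At an unadjusted p under 0.05 there were 2 of 16, Plcb1 and Plcb4, against 8.97%. Plcb1 encodes a phospholipase C that acts downstream of receptors coupled to Gq, the endothelin receptors among them. It stood at 7.98 and 7.91 in mepenzolate lungs and at 7.96 and 7.70 in vehicle lungs at 25 h. At 7 h it stood at 8.77 and 8.60 in mepenzolate lungs and at 8.63 and 8.44 in vehicle lungs. All 4 arrays at 25 h were below all 4 at 7 h, the reverse of Adm, and the difference was -0.72 ± 0.08 (limma adjusted p = 0.0155). The difference was -0.77 without the second mepenzolate array at 7 h (limma adjusted p = 0.0362), and the call ended without any 1 of 5 other arrays, at -0.66 to -0.77 (limma adjusted p = 0.0561 to 0.118).

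The other 15 endothelin list genes did not pass, and of the 16 in all 2 were higher and 14 lower at 25 h than at 7 h (median -0.07, against 0.00 over all genes). The counts without the second mepenzolate array at 7 h were again 2 and 14 (median -0.09, against -0.01 over all genes). Plcb4, a second phospholipase C gene, stood at -0.15 ± 0.06 (limma adjusted p = 0.443), with its 4 arrays at 25 h below the 4 at 7 h, and at -0.16 without that array. For mepenzolate at 25 h 0 of 16 passed limma (0 at an unadjusted p under 0.05), with Ece2, a relative of Ece1, at -0.23 ± 0.14 and the precursor-cutting protease gene Furin at -0.12 ± 0.08 (limma adjusted p = 0.979 for both). Single arrays moved both: with 1 left out Ece2 ran from -0.43 to -0.03 and Furin from -0.18 to -0.05. At 7 h 0 of 16 passed limma (0 at an unadjusted p under 0.05), with Rgs4, which turns off Gq signals, at -0.29 ± 0.13 and the endothelin-3 gene Edn3 at -0.19 ± 0.10 (limma adjusted p = 1.00 for both). With 1 array left out Rgs4 ran from -0.37 to -0.21 and Edn3 from -0.31 to -0.07, and without the second mepenzolate array they stood at -0.21 and -0.10.

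**Figure D4:**
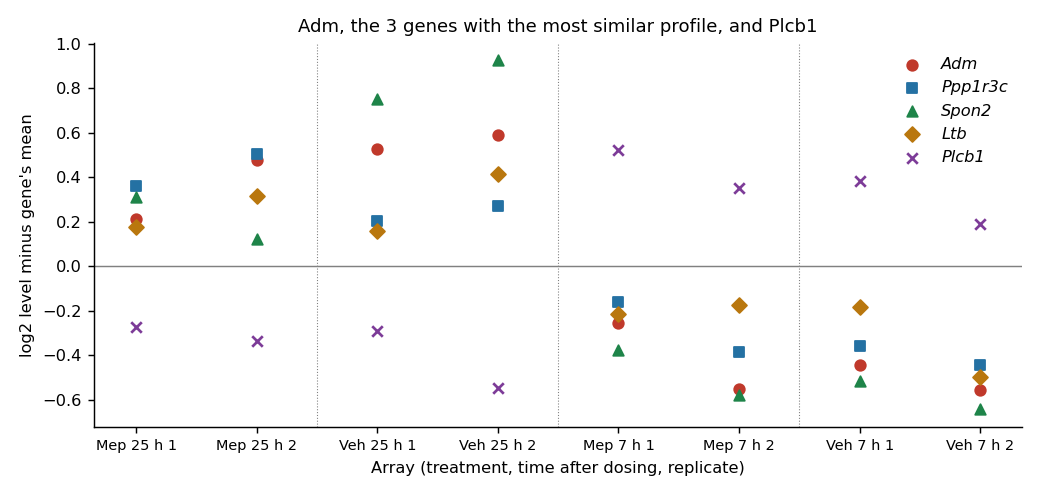
Levels of Adm, of the 3 genes whose profile was nearest to it (Ppp1r3c, Spon2 and Ltb) and of Plcb1 on the 8 arrays, in log2 units after subtracting each gene's mean. The Adm group is above 0 on all 4 arrays at 25 h and below 0 on all 4 at 7 h, and Plcb1 runs the other way.

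The genes whose pattern over the 8 arrays was most like that of Adm were Ppp1r3c, Spon2 and Ltb. Likeness was the root mean square difference over 8 arrays after subtracting each gene's mean, and is a description with no test. It was 0.19 for Ppp1r3c, 0.20 for Spon2 and 0.23 for Ltb, where Adm itself deviated by 0.47 from its own mean. These 3 genes were higher at 25 h than at 7 h by 0.67 ± 0.07, 1.05 ± 0.08 and 0.53 ± 0.09. A time difference in them follows from the choice, made for likeness to Adm on these same arrays. It is therefore no separate evidence. Without the second mepenzolate array at 7 h the 3 differences were 0.62, 1.00 and 0.54. For Ramp3, with the next widest range, A530016L24Rik, Sh3gl2 and Krt5 were nearest, at 0.073 to 0.098 against its own 0.21. For Edn1 they were Slc8a3, Gnmt and Gbp3, at 0.045 to 0.052 against its own 0.11.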

How the data were processed

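The deposited values are log2 expression levels, which the authors made with RMA (version not given in the sources used here) per the submitters' processing notes; RMA equalises arrays and compresses differences of dim genes. They ran from 2.00 to 13.98, with array medians of 6.70 to 6.77. Arrays have no depth, and their number limits the precision. The platform annotation paired 21640 of 34760 probe sets with 1 symbol; 1321 carried several and 11799 are left unnamed. The brightest probe set stood for a gene, and genes at or above the 25th percentile (5.93) were tested. Limma 3.58.1 in R 4.3.3 fitted 1 mean per group over 8 arrays, with 4 residual and 4.09 prior degrees of freedom, and Benjamini-Hochberg adjustment at 0.05. Comparisons share arrays. Intervals of 95% are unadjusted. The fit was also run on simulated data in which every array varied independently, and that run is not used as support here. Members and lists were chosen with earlier results of these data known. Named genes beyond the members were list genes that passed or the 2 with the smallest p per list and comparison, fixed markers and the 3 nearest profiles. Positions are RefSeq's, GRCm38.p6, in which 19854 of 19937 genes matched by Entrez identifier. Within-treatment time differences, and list values without 1 array, were added after seeing the data.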

Additional observations from a re-analysis of the deposited data

How the results depend on the processing

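The time difference of Adm ran from 0.75 to 1.06 over 17 alternatives. Its sign could hardly turn in them, since the arrays of the 2 times did not overlap and several settings leave the difference itself unchanged. The call was kept in 13 of the 17 (limma adjusted p = 0.00215 to 0.184). Genes called between the times numbered 33, 72 with the filter at the 50th percentile, which dropped Ramp1 and Ramp3, 123 with an intensity trend and robust estimation, 73 with a replicate block, 4 within mepenzolate arrays (Arntl, Per2, Tef and Tspan4), 13 within vehicle arrays and 11 to 34 with 1 array left out. Counts for mepenzolate were 0 to 1 at 25 h, 0 to 2 at 7 h and 0 to 2 for the difference of the effect with 1 array left out, and a replicate block gave 1 at 25 h. These genes, named after their values were seen, were Snord73b (replicate block), Gdpd3 (without the second vehicle array at 25 h), Alb and Bpifa1 (without the first mepenzolate array at 7 h) and Atrn (without the second), none of them a member. The labels do not say what the 2 replicate numbers share, so they were not taken as pairs. Deviations of same-numbered arrays correlated at 0.19 to 0.40 among mepenzolate 25 h, mepenzolate 7 h and vehicle 7 h, and at -0.021 to 0.027 between vehicle 25 h and these. The block changed no call of the 8 genes or of Plcb1. Within 1 treatment 3 time differences turned, to 0.012 for Ece1 and -0.017 for Ednrb under mepenzolate and 0.0049 for Edn1 under vehicle. With 1 array left out, when a lone array is assumed to vary like the others, these differences changed sign at least once. At 25 h they were Calcrl (-0.010 to 0.066), Ece1 (-0.051 to 0.10) and Edn1 (-0.11 to 0.017). At 7 h they were Adm (-0.051 to 0.25), Ece1 (-0.071 to 0.0077), Ednrb (-0.056 to 0.11), Ramp1 (-0.16 to 0.044) and Ramp2 (-0.059 to 0.15). Between the times it was Ece1 (-0.054 to 0.021), and for the difference of the effect Ece1 (-0.019 to 0.13), Ramp1 (-0.10 to 0.11) and Ramp3 (-0.074 to 0.36). The cause was not tested for any of these.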
